A study of Rattus norvegicus with 6 samples.

Results

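The regions described here are stretches of the rat genome that the array tiled densely and that sit close to many other tiled stretches. Neighbouring probes on one chromosome were joined into regions wherever the gap between them was at most 1000 bp, and a region was kept as a member where at least 20 other regions had their midpoint within 500 kb of its own. Only chromosomes 1 to 20 were searched, in the coordinates of the rat build rn4 that the file headers give. The rule used positions alone and no measured value. It selected 4225 of 16123 regions (26.2%). The comparison set was the 11230 other regions of chromosomes 1 to 20, matched to the members on probe number and mean probe length.

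The study set DNA methylation in the hearts of newborn rats against maternal exposure to PM2.5, the fine fraction of airborne particles. All samples were cardiac muscle of newborn Sprague-Dawley (SD) rats at day 1, although the extraction text speaks of fetal hearts. The 3 control samples came from offspring of dams given saline into the trachea, and the 3 PM2.5 samples from offspring of dams given a PM2.5 suspension by the same route under ether. Every array carried captured, methylated DNA in Cy5 and the input DNA of the same sample in Cy3. No genotype or transgene is named. The instilled volume was listed as the same for all samples of both groups. The dose of PM2.5 within that volume and pup sex were not given in the sources used here. The samples are called biological replicates, with no word on shared litters, and the p-values therefore cover only the spread between these samples.

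In mammals a methyl group is added to cytosine mostly where a guanine follows it. Methylated DNA immunoprecipitation (MeDIP) captures DNA fragments with an antibody against the methylated base, so a fragment is caught more readily where it holds more methylated cytosines. Promoters rich in such cytosine-guanine pairs usually stay unmethylated, while most of the remaining genome is methylated. Promoter arrays tile the starts of genes, and mammalian genes are spread unevenly, with gene-rich stretches and clusters of related genes. Which genes the members lie at was not analysed here, because probes come without gene names in the files used and the available gene table belongs to a newer assembly. For the same reason no sequence is shown and the tissue label was not checked against marker genes.

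The members held 41217 of the 172669 probes on the array. A member had a median of 10 probes and spanned a median of 1669 bp, against 10 probes and 1662 bp for the other regions. The number of neighbours ranged from 20 to 60 with a median of 28 in the members, and had a median of 8 in the other regions. A median of 20456 bp separated one member from the next along a chromosome. Mean probe length, which the designers varied from 45 to 60 nt, had a median of 47.7 nt in members and 48.5 nt in the others, and 10% of the members reached 55.2 nt or more, against 53.7 nt in the others.

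Members were spread unevenly over the chromosomes. Chromosome 1 held 978 of them, which was 44.0% of its regions. Chromosome 10 held 599, chromosome 3 held 510 and chromosome 7 held 434. The highest share was on chromosome 20, where 230 of 479 regions were members. At the other end, 19 of 498 regions of chromosome 14 (3.82%) and 28 of 446 regions of chromosome 17 (6.28%) were members.

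**Figure D1:**
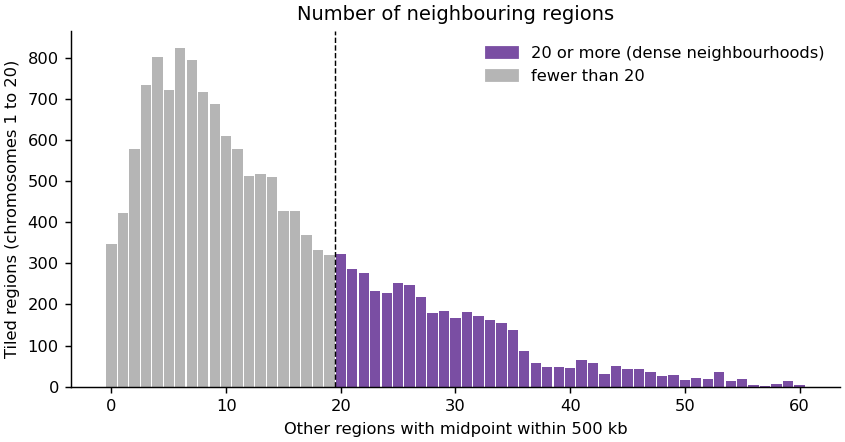
Number of tiled regions on chromosomes 1 to 20 (y axis) by the number of other regions with their midpoint within 500 kb (x axis). The dashed line marks the minimum of 20, to the right of which lie the 4225 members, and the count falls off to 3 regions with 60 neighbours.

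The measured quantity is the log2 ratio of captured over input signal, averaged over a region's usable probes and centred on each array's own median over probes. At the same probes a higher ratio stands for more captured DNA relative to input and to that centre. It is not a methylation level, and it can be read as captured DNA only where the Cy5 signal rose above background. Of the members, 3882 had at least 2 usable probes and were tested, with a median of 4 such probes; the other 343 were not. Among all regions 14786 were tested.

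On the members' probes, the arrays had 84.3% to 90.8% with input well above background and 72.4% to 78.5% with Cy5 well above it. The median input signal was 4.10 to 20.1 times its background. PM2.5 replicate 1 stood apart. On it 38.2% of the members' spots were marked as uneven or as outliers, against 0.374% to 2.22% on the other 5 arrays. Across members its ratios correlated with those of the other arrays at r = 0.857 to 0.873, whereas the other arrays correlated with each other at r = 0.920 to 0.980. It was also the only array of its scanning day. Its part in the group differences below was not tested apart from the values given without it.

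Across the members the mean log2 ratio lay below the array centre on all 6 arrays and was nearer to it in the PM2.5 group. The 3 control arrays gave -0.54, -0.62 and -0.63, and the 3 PM2.5 arrays gave -0.15, -0.44 and -0.47. All PM2.5 arrays lay above all control arrays, and PM2.5 replicate 1 lay farthest from the rest. The group means were -0.60 ± 0.048 (SD, n = 3) and -0.35 ± 0.17 (SD, n = 3), with an exact two-sided permutation p of 0.1, the smallest that 3 against 3 arrays can give. With PM2.5 replicate 1 left out, the mean of that group was -0.45. These levels rest on each array's own centre, which on PM2.5 replicate 1 left out its many marked spots. A common centre, on probes unmarked on all arrays, lowered every change by the same amount, for example from 0.15 to -0.032 at chr1:161241021. The group means here differed by 0.24. The other regions moved alike, from -0.58 ± 0.048 to -0.33 ± 0.18.

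The members also lay closer together in the PM2.5 group. The SD of the ratio over members was 0.769 ± 0.048 in control arrays and 0.608 ± 0.015 in PM2.5 arrays, with no overlap (exact p = 0.1). Members with a ratio below -1 made up 27.3% ± 3.08 of those tested in controls and 14.8% ± 4.57 in PM2.5 arrays. At the upper end the groups overlapped. The share of members above 0.5 was 4.28%, 4.95% and 5.67% on the control arrays and 13.8%, 2.83% and 2.24% on the PM2.5 arrays, so PM2.5 replicate 1 alone was above the controls and the other PM2.5 arrays were below them.

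Region by region, 356 members were higher in the PM2.5 group (9.17% of 3882) and 4 were lower (0.103%), at an adjusted p under 0.05 by limma with Benjamini-Hochberg adjustment over all 14786 regions. The background over all tested regions was 9.79% higher and 0.0473% lower. The members' share of higher calls was thus close to that of the array as a whole. Others with the same probe number and probe length had 9.77% higher and 0.0664% lower, against 9.18% and 0.103% of the matched members. In both directions together 360 members were called (9.27%, against 9.83% of all tested regions), and none of them had overlapping groups. At an unadjusted limma p under 0.05, 1209 members were higher (against 32.5% of all tested regions) and 25 were lower (against 0.622%). Without any test, 1416 members had all PM2.5 arrays above all control arrays (36.5%, against 37.9% of all tested regions) and 82 had all of them below (2.11%, against 1.9%).

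The median change of the members was 0.23 on the log2 scale, beside 0.24 over all tested regions, and 83.6% of members had a change above 0, also 83.6% over all regions. Without PM2.5 replicate 1 the medians were 0.13 and 0.14, with a common centre 0.039 and 0.050, and with marked spots kept 0.055 and 0.059. Among the 356 rises the change ranged from 0.46 to 1.52 with a median of 0.67. These members started low, with a median control ratio of -1.72 that became -1.01 in PM2.5. The count was not stable. It was 0 with quantile or scale normalisation, with normexp background correction, with each probe length centred by itself or without control replicate 3, and it was 1 without control replicate 2. Controls 2 and 3 carry the same scan date and time, which was taken to mean a shared slide. No slide label was read. With the slide so defined as a random block 3 members were called (0.0773%, against 0.0947% of all tested regions). In the authors' deposited values the count was also 0, with a median change of -0.0077.

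Most of the rises involved probes near background. In 305 of the 356, at least 1 usable probe never had Cy5 well above background on a control array, and in 9 no usable probe had Cy5 well above background in either group. Every usable probe was above background in both groups in 44 of the rises (12.4%), against 52.1% of all tested members. Here and below, a probe counts as above background in a group if Cy5 was so on at least 1 of its arrays. Restricting the values to probes with both channels well above background left 8 higher members of 3081 tested (0.260%, against 0.187% of all regions so tested), with a median change of 0.080 in members and 0.076 over all regions. A higher ratio at the remaining rises cannot be read plainly as more captured DNA.

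How far a member changed went with where it started. Sorted by control ratio into 5 groups of equal size, the lowest 777 members went from a mean of -1.75 ± 0.11 in controls to -1.24 ± 0.21 in PM2.5 and held 265 of the 356 rises. The next group went from -0.93 to -0.60 and held 74 rises. The middle group went from -0.51 to -0.27 with 14 rises, and the fourth from -0.14 to -0.011 with 3 rises and 1 fall. The highest group stood at 0.34 ± 0.029 in controls and 0.35 ± 0.20 in PM2.5, held 0 rises and 3 falls, and its arrays overlapped (exact p = 1). The change is measured from the same control values that were used for sorting. Mean probe length fell along the same order, from 52.3 nt in the lowest group to 46.8 nt in the highest, and its part was not tested.

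Set against other regions of the same probe number and mean probe length, the members had a slightly lower ratio on every array. The difference, members minus matched others, was -0.0459, -0.0584 and -0.0552 on the control arrays and -0.0481, -0.0491 and -0.0442 on the PM2.5 arrays. It rested on 3878 members and 10175 others in 105 combinations of probe number and length. All 6 values lie within a narrow band below 0 and the groups overlap. Their mean was -0.0502 ± 0.00552 (SD, n = 6), with an exact two-sided sign-flip permutation p of 0.03125, the smallest that 6 arrays allow, and 0.0625 after Benjamini-Hochberg adjustment over the 6 measures compared. The arrays share their probes, so this test covers the spread between arrays and not the choice of regions.

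The exposure groups were not told apart by this difference. It averaged -0.0532 ± 0.00652 in controls and -0.0472 ± 0.00257 in PM2.5, which differ by 0.00601 (exact two-sided permutation p = 0.3, adjusted 0.45). Within the first scanning day, with 1 array of each group, the groups differed by 0.00164, and within the second, with 2 control arrays and 1 PM2.5 array, by 0.00773. On the same days the members' median change was 0.048 and 0.18, both below the pooled 0.23.

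The lower ratio came with a brighter input and, averaged over all members, no dimmer captured channel. The difference in captured signal changed sign with probe length, as given further on. Input signal, on the log2 scale, was higher in members than in matched regions on 6 of 6 arrays, by 0.0505 to 0.0657 with a mean of 0.0569 (exact sign-flip p = 0.03125, adjusted 0.0625). The captured Cy5 signal differed by a mean of 0.00670 over the 6 arrays (exact sign-flip p = 0.125, adjusted 0.1875). It was 0.00544, -0.000783 and -0.00464 on the control arrays and 0.0176, 0.00939 and 0.0132 on the PM2.5 arrays. The PM2.5 arrays all lay above 0 and above the controls (exact two-sided permutation p = 0.1, adjusted 0.3). The share of probes with Cy5 well above background was higher in members on all arrays, by 0.123 to 0.478 percentage points. The share of marked spots differed by 0.0598 points on average, with both signs. When others were also matched on input signal the difference in ratio was -0.0329, still below 0 on 6 of 6 arrays.

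**Figure D2:**
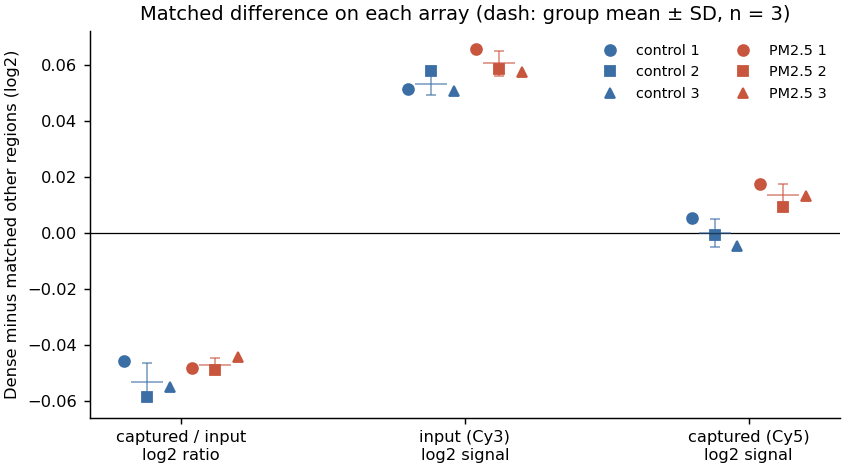
Members minus matched other regions on each array (points), for the log2 ratio, the log2 input signal and the log2 captured signal, with the group mean and SD of 3 arrays (dash and bar). All ratio points lie below 0, at -0.0584 to -0.0442, all input points above 0, at 0.0505 to 0.0657, and the captured points at -0.00464 to 0.0176, with those of PM2.5 above those of control.

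Its size depended on how the comparison was made, while its sign did not. Without matching the difference was -0.0244, with both channels well above background it was -0.0879, and with neighbours counted within 250 kb, which keeps 869 tested members, it was -0.0174. Leaving out the 13 long-probe neighbourhoods described further on, a choice made after seeing the data, gave -0.0658. In the authors' deposited values it was -0.0380.

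The members were also less spread out than their matched counterparts. After matching, the SD over regions was 0.0290 to 0.0479 smaller in members on 6 of 6 arrays. Fewer members reached a high ratio: 4.97% were above 0.5 in controls against 7.23% of the matched regions, and 6.28% against 8.44% in PM2.5, the difference being below 0 on 6 of 6 arrays. At the low end, 27.3% of members against 25.6% of matched regions lay below -1 in controls. In PM2.5 it was 14.8% against 14.1%, and PM2.5 replicate 1 had the opposite sign, with a difference of -0.184 percentage points.

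The lower ratio extended in steps below and above the minimum of 20 neighbours. Relative to matched regions, averaged over 6 arrays, the ratio was 0.0115 for regions with 0 to 4 neighbours, 0.00494 for 5 to 9, -0.000729 for 10 to 14, -0.0268 for 15 to 19, -0.0422 for 20 to 24 and -0.0539 for 25 or more. The first 4 classes are the reference themselves, so they average close to 0 by construction. From 15 neighbours upward all 6 arrays were below 0. Within the last class, 25 to 29 neighbours gave -0.0675 and 30 or more gave -0.0456, and the latter held more regions of 54 nt or longer (20.5% against 10.3%). The share of regions more than 0.5 above the reference in controls was 23.8% with 0 to 4 neighbours and 17.8% with 25 or more, while the share more than 0.5 below it was 20.1% and 21.9%.

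Around the minimum itself the levels did not follow that order. For the 291 tested regions with 19 neighbours the mean ratio was -0.66 over control arrays and -0.39 over PM2.5 arrays, and for the 289 with 20 neighbours it was -0.56 and -0.32. These levels are not matched on probe length, which averaged 49.0 nt and 48.5 nt.

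Probe length divided the members sharply. The mean ratio of members minus that of matched regions, over the 6 arrays, was -0.110 under 46 nt, -0.0624 at 46 to 48 nt, -0.0705 at 48 to 50 nt and -0.098 at 50 to 52 nt, with 6 of 6 arrays below 0 in each class. At 52 to 54 nt the difference was -0.00972 with 5 of 6 arrays below 0. At 54 nt and over the 564 members were 0.0457 above the 900 matched regions on 6 of 6 arrays. Input signal was higher in members in every one of these classes on all arrays. The difference in captured signal was -0.0203 under 46 nt, 0.00745 at 46 to 48 nt, -0.0479 at 48 to 50 nt and -0.0747 at 50 to 52 nt. It was below 0 on 6 of 6 arrays at 48 to 50 and 50 to 52 nt, and on 5 of 6 under 46 nt. At 52 to 54 nt it was 0.0495, and at 54 nt and over 0.0815. At 52 to 54 nt it was above 0 on 6 of 6 arrays while the ratio difference was slightly below 0.

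**Figure D3:**
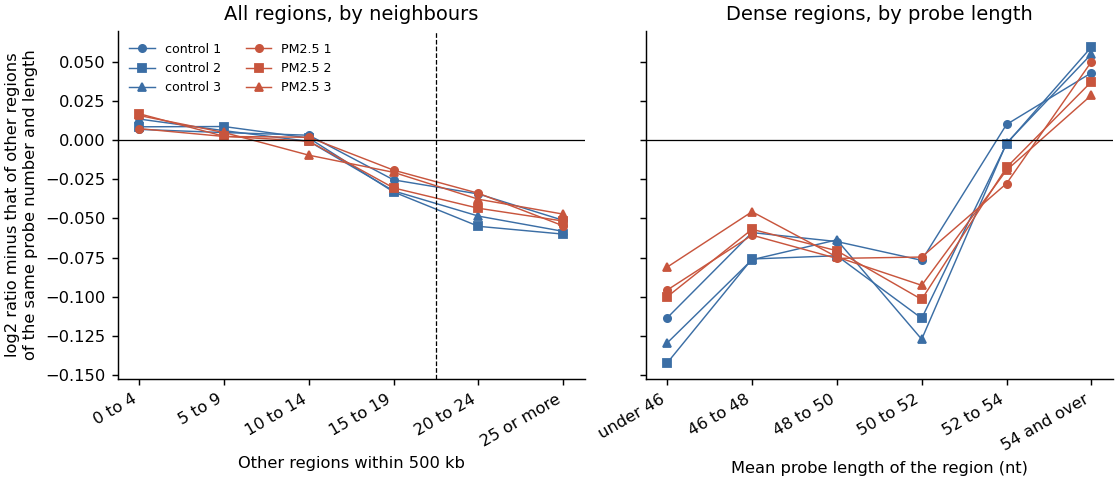
Mean log2 ratio relative to other regions of the same probe number and length, 1 line per array, by number of neighbours (left; dashed line at the minimum of 20) and, for members, by mean probe length in nt (right). The lines fall with the number of neighbours to between -0.060 and -0.047 and cross from below 0 under 52 nt to above 0 at 54 nt and over.

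The calls followed probe length too. The share of members called higher in PM2.5 was 0.966% under 46 nt, 4.57% at 46 to 48 nt, 7.59% at 48 to 50 nt, 14.7% at 50 to 52 nt, 17.2% at 52 to 54 nt and 25.9% at 54 nt and over. In the other regions the same classes had 0.845%, 4.03%, 8.86%, 14.2%, 20.5% and 26.7%. The share rose with probe length in both sets. All 4 falls were members with a mean probe length under 46 nt.

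Members within 500 kb of one another were joined into 119 neighbourhoods, which held 1 to 250 members with a median of 26 and spanned a median of 810 kb. The 5 with most members together held 824 members. Of the 119, 90 had at least 10 tested members, and each of these 90 had a higher mean ratio in PM2.5 than in controls. In 68 of them all PM2.5 arrays lay above all control arrays, and in 0 of them below. The median change over all tested regions of the array was above 0 too, at 0.24. Their mean ratio did not overlap between the groups either. It was -0.53, -0.60 and -0.62 on the control arrays and -0.13, -0.41 and -0.46 on the PM2.5 arrays. The count of 68 is therefore not read as particular to these neighbourhoods, and no such count was made for groups of other regions. Both counts, of 90 and of 68, rest on each array's own centre. A common centre lowered every change by the same amount, for example from 0.15 to -0.032 at chr1:161241021. The mean changes of the 90 began at 0.0991, so not all would stay above 0 with it. The counts were not made again with that centre. At least 1 member was called higher in 77 neighbourhoods, and 21 of the 90 had no called member.

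The neighbourhood with most members lay at chr3:67937279-75620695, with 250 members, 214 of them tested, and a mean probe length of 55.3 nt. Its mean ratio was -1.09, -1.22 and -1.31 on the control arrays and -0.61, -0.90 and -0.96 on the PM2.5 arrays. The groups did not overlap, and 48 members were called higher. Against matched regions it was 0.0988 ± 0.00756 higher in controls and above 0 on all 6 arrays.

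The neighbourhood at chr1:159272493-164460325 held 190 members with a mean probe length of 53.1 nt. Its control arrays had -0.83, -0.97 and -1.02 and its PM2.5 arrays -0.32, -0.64 and -0.68, without overlap, and 40 members were called higher. It was 0.117 ± 0.00251 above matched regions in controls and again above 0 on all arrays. These 2 neighbourhoods held 88 of the 356 rises. The called share was 22.4% of tested members in the first and 21.9% in the second, against 9.79% of all tested regions. Among other regions, outside the members, it was 20.5% at 52 to 54 nt and 26.7% at 54 nt and over.

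The other 3 of the 5 had short probes and fewer calls. At chr20:2647864-5452882, 130 members with a mean probe length of 46.8 nt had a control mean of -0.43 ± 0.015 and a PM2.5 mean of -0.28 ± 0.15, with 5 rises. Relative to matched regions this neighbourhood was at -0.170 ± 0.020 in controls and below 0 on 6 of 6 arrays. The neighbourhoods at chr1:206095537-210105126 and chr7:9531936-12604417 had 127 members each and went from -0.31 to -0.15 and from -0.31 to -0.18, with 5 rises and 1 fall in the first and 4 rises in the second. In the chromosome 7 neighbourhood the PM2.5 and control arrays overlapped.

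Of the neighbourhoods with at least 10 tested members, the lowest control mean was at chr8:40321588-41530319, where 54 tested members averaged -1.53 ± 0.12 in controls and -1.02 ± 0.15 in PM2.5, with 18 rises. Next came chr3:96957564-98014544 at -1.48, with 9 rises of 33 tested, and chr1:165348461-166162960 at -1.45, with 3 of 22. Mean probe length was 55.2 to 56.6 nt in these 3, and each was below its matched regions on 6 of 6 arrays. Among other regions, outside the members, 26.7% were called higher at 54 nt and over. The highest control means were at chr7:127287612-127909056 (-0.09 ± 0.022), chr3:3039181-4809776 (-0.12 ± 0.0051) and chr20:10834836-11433109 (-0.15 ± 0.036). These had mean probe lengths of 46.4 to 46.6 nt, groups that overlapped, and 0, 1 and 1 rises.

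Relative to matched regions the extremes were elsewhere; these 2 were picked after their values were seen. At chr5:138738518-139548074 the 17 tested members lay at -0.564 ± 0.0170 in controls, and the PM2.5 arrays gave -0.445, -0.515 and -0.544. At chr10:10550624-11144439 the 20 tested members lay at 0.176 ± 0.0457, with PM2.5 arrays at 0.175, 0.124 and 0.106. Neither had a called member. After matching, 49 of the 90 neighbourhoods were below 0 on all 6 arrays, 19 were above 0 on all 6, and the others were mixed.

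Over the 90 neighbourhoods, which share the same 6 arrays, mean probe length correlated with the mean control ratio at r = -0.917 and with the mean change at r = 0.904, and with the matched control ratio at r = 0.0761. Taken over all 119 neighbourhoods, they accounted for 22.0% of the variance of the control ratio over members. After matching it was 4.21%, and for the change it was 16.6%. These shares are not adjusted for the number of neighbourhoods. So many groups give a share above 0 by themselves, so the 4.21% is not read as a difference between neighbourhoods. The 13 neighbourhoods with a mean probe length of at least 52 nt held 768 tested members, of which 171 (22.3%) were called higher. The remaining 77 held 3007, of which 172 (5.72%) were called higher and 4 lower. Of all 3114 tested members outside those 13 neighbourhoods, 185 (5.94%) were higher and 4 lower. Over all tested regions of the array 9.79% were higher and 0.0473% lower.

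**Figure D4:**
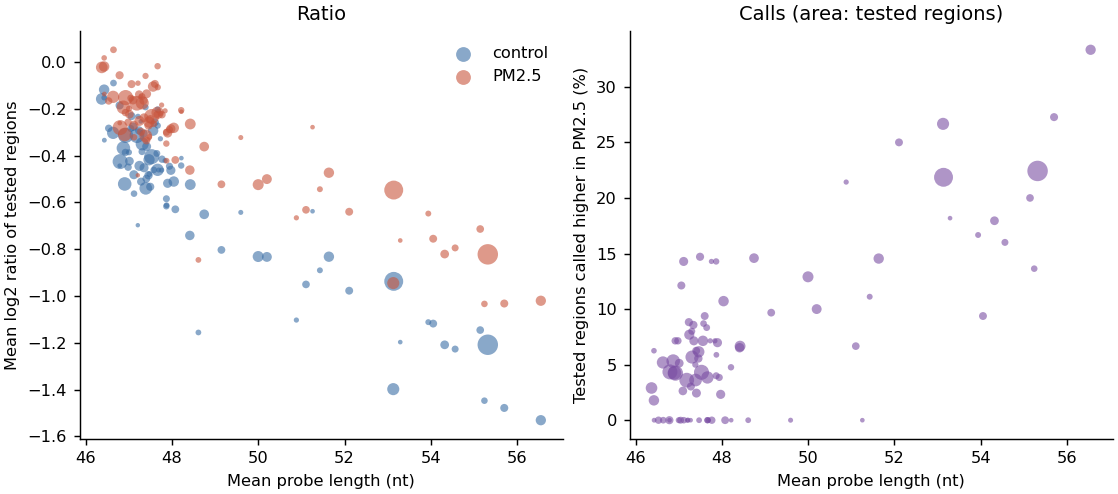
The 90 neighbourhoods with at least 10 tested members, by mean probe length in nt. Left, mean log2 ratio of their tested members in controls and in PM2.5; right, percent of tested members called higher. Point area stands for the number of tested members. Ratios fall with probe length while the called share rises, to 33.3% at the longest probes.

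Neighbouring members resembled each other weakly. Over pairs of adjacent members the control ratio correlated at r = 0.259 for gaps up to 10 kb (645 pairs), 0.297 for 10 to 50 kb (2370 pairs) and 0.211 for 50 to 500 kb (744 pairs). Adjacent other regions had 0.135, 0.192 and 0.148. After matching the members' values were 0.0986, 0.0535 and 0.0327 and the others' 0.0666, 0.050 and 0.060. Pairs share arrays and probe design, so these values are descriptions.

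The largest rise among the members was at chr20:5140243-5141402, a region of 1160 bp with 5 probes, 3 of them usable, and 37 neighbours. Its ratio was -2.73, -3.29 and -3.57 on the control arrays and -1.58, -1.76 and -1.70 on the PM2.5 arrays. The groups lay far apart, with a change of 1.52 ± 0.19 (SE) and an adjusted p of 0.0194 by limma. Cy5 was well above background on at least 1 array at 1 of the 3 probes in controls and at 2 of them in PM2.5.

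The second, at chr1:86329445-86331098, rose from -2.65, -2.87 and -2.70 to -0.80, -1.67 and -1.27, a change of 1.49 ± 0.20 (adjusted p = 0.0194 by limma), with Cy5 above background at 2 of 3 usable probes in each group. At chr1:216137282-216139069, whose probes average 57.9 nt, the control arrays had -3.67, -3.16 and -3.60 and the PM2.5 arrays -2.21, -2.17 and -1.65. The change was 1.47, yet neither of its 2 usable probes had Cy5 above background on any PM2.5 array, so it cannot be read as more captured DNA.

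At chr3:75040608-75042275, inside the neighbourhood with most members, the ratio rose from -2.04, -2.46 and -2.67 to -0.62, -1.52 and -1.12. At chr13:87039284-87040978 it rose from -2.51, -2.96 and -3.13 to -1.48, -1.98 and -1.37. Their changes were 1.30 ± 0.23 and 1.25 ± 0.20, each with an adjusted p of 0.0235 by limma and Cy5 above background at 1 usable probe in each group. In none of these 5 regions did the groups overlap, and none was called with quantile or scale normalisation, with normexp correction, with each probe length centred by itself, without control replicate 3 or in the authors' deposited values. A random slide effect left 3 of the 5 called, and leaving out control replicate 2 left 1 of the 5. All 5 had too few probes left to be tested with both channels above background.

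The 4 falls all started above the array centre and had Cy5 above background at every usable probe in both groups. The largest, at chr12:42696398-42696743, is a region of 346 bp with 3 probes of 45 nt, 2 of them usable. Its ratio was 1.04, 1.20 and 1.04 on the control arrays, against 0.07, 0.45 and 0.41 on the PM2.5 arrays, a change of -0.79 ± 0.15 (SE; adjusted p = 0.0252 by limma). At chr5:153291494-153293203 the control arrays had 0.06, 0.49 and 0.37 and the PM2.5 arrays -0.55, -0.22 and -0.39, a change of -0.70 ± 0.16 (adjusted p = 0.031 by limma).

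At chr15:33968487-33970088 the ratio was 0.92, 1.21 and 1.33 on the control arrays, against 0.46, 0.74 and 0.47 on the PM2.5 arrays, a change of -0.60 ± 0.15 (adjusted p = 0.0403 by limma). At chr1:209643207-209644822 it was 0.54, 0.47 and 0.57 against 0.10, 0.04 and -0.04, a change of -0.49 ± 0.13 (adjusted p = 0.0411 by limma). The region at chr9:10104638-10106164 missed the threshold. It came next by unadjusted p among lower members with at least 3 usable probes. Its values were 0.13, 0.17 and 0.28 on the control arrays, against -0.26, -0.17 and -0.21 on the PM2.5 arrays. The change was -0.41 with an adjusted p of 0.0624 by limma. Groups did not overlap in any of the 5. These 4 are among the 7 falls called on the whole array. With both channels required above background, 3 of the 4 could be tested and had changes of -0.81 to -0.51, with adjusted p of 0.0581 to 0.0765 by limma. None of the 4 was called with the slide as a random block (adjusted p of 0.0573 to 0.0885 by limma), with quantile or scale normalisation, with normexp correction, with each probe length centred by itself, without control replicate 2 or 3 or in the authors' deposited values.

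**Figure D5:**
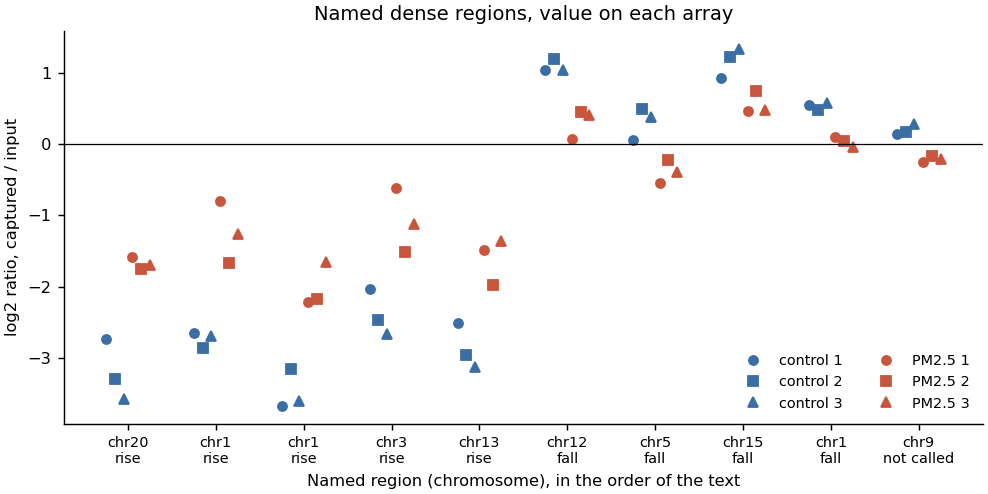
Log2 ratio of captured over input DNA on each of the 6 arrays for the 5 largest rises, the 4 falls and 1 region that was not called. The latter came next by unadjusted p among lower members with at least 3 usable probes. Regions are labelled by chromosome in the order of the text. Controls lie below PM2.5 arrays in each rise, at -3.67 to -2.04 against -2.21 to -0.62, and above them in each fall.

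Among members with at least 3 usable probes, the highest control ratios were 1.27 ± 0.16 at chr11:84863017-84864754, 1.15 at the chromosome 15 fall above, 1.06 ± 0.024 at chr7:11103038-11104281, 1.04 ± 0.17 at chr12:42728581-42730282 and 1.00 ± 0.26 at chr5:154799263-154800256. Their PM2.5 means were 1.04, 0.56, 0.90, 0.75 and 0.80, and only the chromosome 15 region was called. These regions were picked for high control values, and so no direction is read from PM2.5 means below the control means. In 3 of the 5 the groups overlapped. Mean probe length was 45 to 45.9 nt in all of them, and all usable probes had Cy5 above background in both groups. Since ratios differ with probe length, the order of regions by ratio is not an order of methylation.

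The lowest control ratios were -3.75 ± 0.17 at chr8:40439121-40440531, -3.45 ± 0.14 at chr1:206801448-206803118, -3.33 ± 0.28 at chr20:830502-832149, -3.26 ± 0.15 at chr13:87335559-87337150 and -3.20 at the chromosome 20 rise above. In PM2.5 they had -3.28, -2.80, -2.43, -2.54 and -1.68, and the choice by low control values likewise leaves no direction to read. The chromosome 8 region had Cy5 well above background at no usable probe on any array, so its change of 0.47 is between signals at background. Those at chr20:830502 and chromosome 13 had none above background in PM2.5. The chromosome 1 region was called, with a change of 0.65 ± 0.15 (adjusted p = 0.031 by limma). It had Cy5 above background at 1 of 4 usable probes in each group.

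The 3 members with 60 neighbours, the most of any region, lie side by side within the second largest neighbourhood. At chr1:161216565-161217806 the ratio was -1.24, -0.90 and -1.18 on the control arrays, against -0.69, -0.64 and -0.90 on the PM2.5 arrays, where the groups all but touch and the change of 0.37 was not called (adjusted p = 0.112 by limma). At chr1:161230431-161232203 it was -2.00, -2.26 and -2.21 against -1.25, -1.74 and -1.43, a change of 0.68 ± 0.16 with an adjusted p of 0.033 by limma. At chr1:161241021-161242531 the controls had -0.49, -0.82 and -0.58 and the PM2.5 arrays -0.92, -0.05 and -0.46, which overlap. Thus 1 of these 3 adjacent regions was called, and it was the one with the lowest control ratio and with Cy5 above background at 3 of 5 usable probes in controls and 1 of 5 in PM2.5.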

How the data were processed

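MeDIP-chip was done on 3 control and 3 PM2.5 samples. Spot intensities were deposited as Feature Extraction scanner output; per the file headers the processed signals had background subtraction, spatial detrending and linear dye normalisation. The authors' deposited log2 table served as an alternative; its scale and smoothing are unknown, its array medians were -0.00596 to 0.0270, and over probes unmarked on all arrays its values correlated with the scanner ratios of the same array at 0.851 to 0.888. Flags for outliers, uneven spots and signals well above background, a yes or no code per the file headers, served as filters.

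Processed Cy5 over Cy3 signal, as a log2 ratio, was computed in R 4.3.3 with data.table (version 1.17.8). Control and marked spots were left out, as were probes whose input was not well above background on all 6 arrays (135720 probes kept), and the median over an array's own kept probes was subtracted from that array. Regions with at least 2 probes unmarked on all arrays took their mean. limma 3.58.1 (lmFit, eBayes) compared PM2.5 with control over 14786 regions, with Benjamini-Hochberg adjusted p under 0.05. Members were compared per array with others of equal probe number (up to 20, wider classes beyond) and equal mean probe length in steps of 2 nt, weighted by members. Exact permutation tests were two-sided. The scripts were tested on simulated data. Named regions were the 5 largest rises and falls, filled by unadjusted p among members with at least 3 probes used. Also named were the 5 highest and 5 lowest in controls with at least 3 probes used, the most neighbours, and the neighbourhoods with most members (5), highest and lowest (3 each). The members and lists were chosen with earlier results of these data known. Alternatives covered background, normalisation, filters, centring, blocks, arrays left out and the definition of members. The number of arrays limits the precision. Figures used matplotlib 3.10.9.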

Additional observations from a re-analysis of the deposited data

How the results depend on the processing

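The count of called members (360, 9.83% of all tested regions being called) was 0 under normexp (746 higher and 50 lower at an unadjusted limma p under 0.05), scale (258 and 14), quantile (260 and 41) and probe-length centring (557 and 122), and 0 in the authors' deposited values (123 and 126). It was 80 with loess (64 higher, 16 lower; 2.06% of members, 2.60% of all regions), 75 with no input filter (1.82% of members, 2.16% of all regions), 8 with both channels above background (0.260%, 0.187%), 83 with a common centre (72 higher, 11 lower; 2.14%, 2.38%), 200 with the median over probes (5.15%, 5.05%), 632 with a scanning-day block (602 higher, 30 lower; higher calls 15.5%, 17.2%), 3 with the slide as random block (0.0773%, 0.0947%) and 49 with trend and robust estimation (1.26%, 1.45%). Redefining members, with 9.83% of all regions called throughout, gave 709 (8.76% of members, at least 10 neighbours), 188 (11.4%, at least 30), 97 (11.2%, 250 kb) and 656 (8.80%, 1 Mb), and 189 (6.07%) without the 13 long-probe neighbourhoods, chosen after seeing the data. Leaving out 1 array gave 0 to 410 (0 without control replicate 3, with 658 higher and 5 lower unadjusted, and 1 without control replicate 2). The scanning-day block takes up PM2.5 replicate 1, the only array of its day. The change in the count of 632 therefore rests on the other 5 arrays.

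Replicate numbers did not pair the arrays (r of same-numbered deviations -0.00814, 0.113 and -0.148); with the replicate block 705 members were called (18.2%, against 19.1% of all tested regions).

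The median change was 0.081 with loess, 0.080 with both channels, 0.055 with marked spots kept, 0.039 with a common centre, 0.086 with probe lengths centred, -0.00768 in the authors' values, and 0.13 to 0.29 with 1 array left out. The matched difference stayed below 0 and that of input above 0 under every alternative run, at exact p = 0.0625 with 5 arrays (-0.0513 to -0.0485, and 0.0551 to 0.0581). Its PM2.5 minus control value of 0.00601 was -0.00164 with scale normalisation and in the authors' values, -0.00243 quantile, 0.0182 both channels, 0.0113 median over probes, -0.00464 at least 30 neighbours, -0.00293 within 250 kb and -0.00899 unmatched; 1 array left out gave 0.00337 to 0.00965. 

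At 25 or more neighbours the level of -0.0539 was -0.0449 normexp, -0.0664 loess, -0.0420 authors' values, -0.0342 no filter, -0.0913 both channels, -0.0675 marked spots kept, -0.0645 probe lengths centred, -0.0425 at least 5 probes, -0.0607 at least 10 neighbours, 0.00311 within 250 kb, -0.0461 within 1 Mb, -0.0487 with a wider joining gap and -0.0732 without long-probe neighbourhoods. The variance share of neighbourhoods (22.0%) was 19.6 normexp, 12.5 loess, 44.7 authors' values, 19.3 no filter, 14.8 both channels, 35.1 marked spots kept, 5.24 probe lengths centred, 20.5 median, 29.8 at least 5 probes, 18.1 and 30.8 at least 10 and 30 neighbours, 33.5 within 250 kb, 16.0 within 1 Mb and 9.29 without long-probe neighbourhoods.

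Signs turned at chr8:40439121 (normexp -0.13, scale -0.074, quantile -0.18, loess -0.10, authors' values -0.033, probe lengths centred -0.10), chr1:206801448 (authors' values -0.049), chr1:161216565 (loess -0.067, authors' values -0.016) and chr1:161241021 (loess -0.010, authors' values -0.0045, common centre -0.032, probe lengths centred -0.15, and -0.056 to 0.37 with 1 array left out, lowest without PM2.5 replicate 2). Signal near background limits the lowest ratios. The causes were not tested.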

Other observations

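Outside chromosomes 1 to 20 the same count of neighbours also found dense regions, which enter no comparison above. On the X chromosome 62 of 505 tested regions had at least 20 neighbours. Controls averaged -0.46 ± 0.034 and PM2.5 arrays -0.23 ± 0.14 there (log2 ratio, SD, n = 3), and 5 were called higher and 0 lower by limma. On unplaced sequence 18 of 92 tested regions had that many neighbours, with -0.38 ± 0.022 and -0.21 ± 0.17, and 1 was called higher. The share called higher over all tested regions was 9.79%. The pups' sex is not given, and its part in the X chromosome values was not tested.

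The share of called members varied between chromosomes, with no test of the difference. Of all tested regions of the array 9.79% were higher. On chromosome 3, 71 of 458 tested members were higher, with a mean control ratio of -0.90. Of these 71, 48 lay in the neighbourhood with most members, whose probes averaged 55.3 nt. The part of probe length in the counts by chromosome was not tested. On chromosome 19, 1 of 106 was higher, with a mean control ratio of -0.31. The median changes of the members were 0.29 and 0.18.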
